A study of Mus musculus with 8 samples.

Results

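Small RNAs annotated to the long terminal repeats (LTRs) of intracisternal A particles (IAPs) were examined in a list of distinct small RNA sequences from mouse testes. Every sequence whose annotation began with IAP and contained LTR was taken. This gave 51719 sequences, of which 42130 were 24 to 33 nt long, the length range of piRNAs. They made up 0.863% of the 4883266 sequences of that length and 32.7% of the 129040 that carried any IAP name. The 42130 sequences fell under 12 names, each with at least 500 sequences. Of the 12, IAPLTR3-int (13909 sequences) and IAPLTR4_I (780 sequences) are by their endings internal retroviral regions, which the rule took in because their names contain LTR. The remaining 10 names, with 27441 sequences, are LTRs proper and are called the 10 LTR names here.

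The study sequenced small RNA of 19 to 33 nt from testes of mice homozygous or heterozygous for mutations in Tdrd6 or Tdrd1, which encode Tudor-domain proteins that bind Piwi proteins. Homozygous Tdrd6 and heterozygous Tdrd6 testes were taken 18 days, 25 days and 6 weeks after birth, and homozygous Tdrd1 and heterozygous Tdrd1 testes 18.5 days after conception, 1 library each, 8 in all. The list pools the libraries: 0 of its 3 columns were tied to a library, and none held a read number. No comparison of homozygous with heterozygous testes, or of ages, could therefore be made, and the depth of each library is unknown. The values count distinct sequences and not reads, and no test was run. The intervals are exact 95% (Clopper-Pearson) intervals that cover counting error only, and sequences that overlap on the same copy are not independent.

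IAPs are endogenous retroviruses of the mouse that still transpose. The LTR at either end of a copy holds the promoter that starts its transcription and the signal that ends it, and many LTRs persist alone after the internal region has been lost. In male germ cells IAPs are silenced by DNA methylation guided by piRNAs, the small RNAs of the Piwi proteins MILI, MIWI2 and MIWI. A piRNA usually begins with U, written T here. When a Piwi protein cuts a target, the cut lies opposite positions 10 and 11 of its piRNA, so a new piRNA made from the cut end overlaps the first by 10 nt and carries A at position 10. Reciprocal cutting of this kind, the ping-pong cycle, leaves pairs of 5' ends on opposite strands that overlap by 10 nt.

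The pairs are seen most directly on a copy of each LTR. The 30 bases below surround, for each of the 10 LTR names, a 10-nt pair of 5' ends on 1 copy of that LTR. The pair taken had the largest product of its sense and antisense sequence numbers. The capitals mark the 10 bases of overlap. A sense small RNA starts at the first capital and runs to the right, and an antisense one starts opposite the last capital and runs to the left. All are written along the LTR, 5′ to 3′, from GENCODE transcripts on GRCm38.
IAPLTR1_Mm, in Kif24 at chr4:41455038-41455067 (+): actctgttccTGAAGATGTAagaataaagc
IAPLTR1a_Mm, in Gm26782 at chr14:50880452-50880481 (+): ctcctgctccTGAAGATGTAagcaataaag
IAPLTR2_Mm, in Gm18517 at chr13:81086416-81086445 (-): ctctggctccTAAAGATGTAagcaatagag
IAPLTR2a, in Cpne5 at chr17:29219076-29219105 (+): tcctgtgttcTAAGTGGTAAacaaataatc
IAPLTR2b, in the 3' UTR of Cmah at chr13:24470861-24470890 (-): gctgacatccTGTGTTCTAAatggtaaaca
IAPLTR3, in the 3' UTR of Lair1 at chr7:4003578-4003607 (-): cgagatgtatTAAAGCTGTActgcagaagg
IAPLTR4, in the 3' UTR of Vmn1r191 at chr13:22173968-22173997 (-): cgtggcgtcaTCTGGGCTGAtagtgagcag
IAPEY_LTR, in Gm49116 at chr15:14480539-14480568 (+): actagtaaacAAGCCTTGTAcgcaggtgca
IAPEY2_LTR, in the 3' UTR of Rdh16f1 at chr10:127792559-127792588 (+): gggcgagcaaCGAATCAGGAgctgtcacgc
IAPEY3_LTR, in Gm44610 at chr7:66616139-66616168 (+): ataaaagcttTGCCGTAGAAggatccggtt

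In all 10 of these sites the last capital was A. An antisense small RNA that matches the copy there begins with T, and a matching sense one has A at position 10. In 8 of the 10 the first capital, where the sense small RNA starts, was T. At the IAPEY_LTR and IAPEY2_LTR sites it was A and C. These are bases of the copy. Small RNAs were placed on it with differences allowed, and their own bases at these sites were not counted. The sites of IAPLTR1_Mm, IAPLTR1a_Mm and IAPLTR2_Mm were versions of the same stretch, TNAAGATGTA. That word, picked after these sites were seen and searched for on both strands, was present on the sense strand in 96 of the 135 IAPLTR1 and IAPLTR2 stretches found in transcripts (71.1%) and in 1 of 33 stretches of the other names. It was in 0.530% of all 32851 RefSeq promoters (250 bases before to 50 bases from the gene start), and in 24 of the 77 that held a match to the 10 LTR names. The IAPLTR2a word, TAAGTGGTAA, does not overlap it and was in 81 of the 135 IAPLTR1 and IAPLTR2 stretches, in 0 of the other 33, in 0.0731% of promoters and in 13 of those 77. Among the 135 and 33 stretches, a locus held by several transcripts was counted more than once.

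The number of distinct sequences starting at a site shows how far these pairs stood out, which differed between copies. On the IAPLTR2_Mm copy 76 antisense sequences started at position 288 and 67 sense sequences at position 279, counted from the 5' end of the copy. These were the highest values on each strand, and the pair overlapped by 10 nt. The same held for IAPLTR2a, with 54 antisense sequences at position 66 and 43 sense sequences at position 57, and for IAPEY_LTR, with 19 antisense sequences at position 87 and 24 sense sequences at position 78. In the other 7 copies the strongest position on at least 1 strand belonged to another pair or to none. The printed sites with fewest sequences were those of IAPEY3_LTR, with 6 antisense and 5 sense, and IAPLTR4, with 5 antisense and 7 sense. The highest single position was on IAPLTR2b, where 155 antisense sequences started at position 208.

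**Figure D1:**
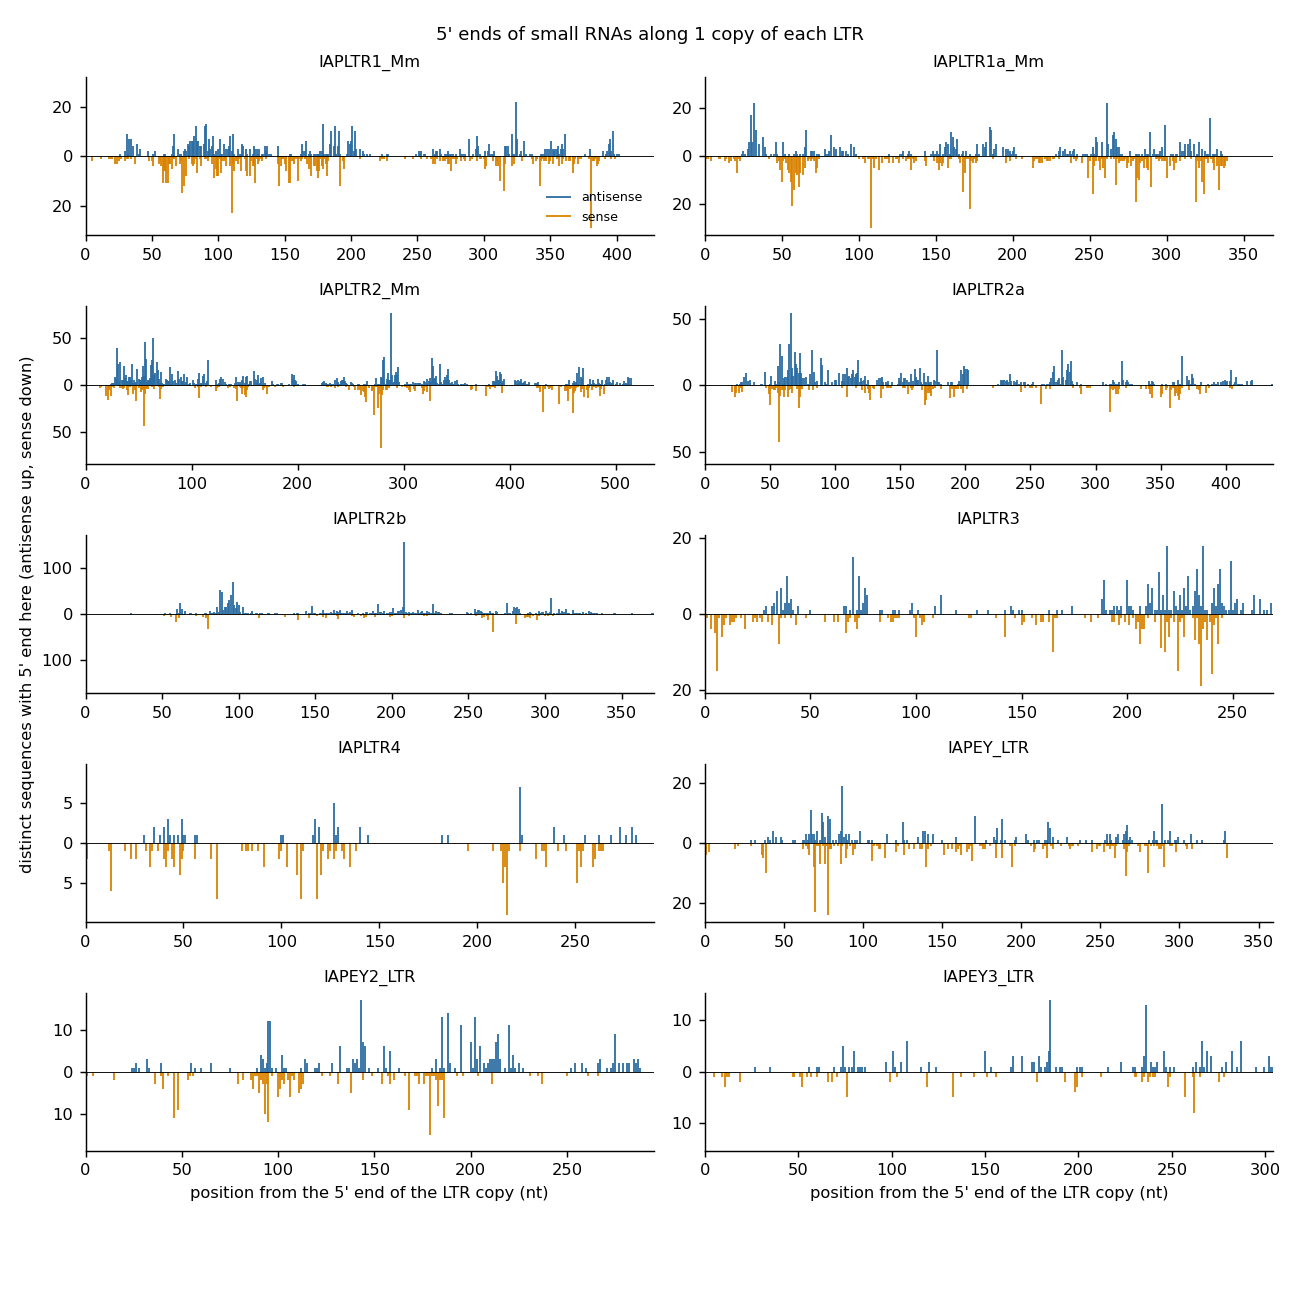
Number of distinct sequences whose 5' end lies at each position along 1 copy of each of the 10 LTR names, with antisense sequences above the line and sense ones below (vertical scales differ). Facing peaks on IAPLTR2_Mm near position 288, on IAPLTR2a near position 66 and on IAPEY_LTR near position 87 are the 10-nt pairs described in the text, and the single tall peak on IAPLTR2b at position 208 has no facing peak of like height.

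Between 17.3% of a name's sequences (IAPEY3_LTR) and 57.2% (IAPLTR1_Mm) could be placed on its copy with at most 2 differences. Counting all sense and antisense pairs on a copy, an overlap of 10 nt had most pairs of the 24 overlaps from 1 to 24 nt in 9 of the 10 copies. On the IAPEY3_LTR copy it came second, with 105 pairs, against a highest value of 108. Pairs at 10 nt were 1.82 times (IAPLTR1_Mm) to 3.81 times (IAPLTR4) as many as the mean of the other overlaps. The 10 fullest positions held from 11.8% (IAPLTR1_Mm) to 29.7% (IAPLTR4) of the placed 5' ends, so most 5' ends lay elsewhere.

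Sequences that mapped to 1 position, by the authors' map number, can be tied to a place in the genome. For each name, a 5' end follows, with the first base and position 10 in capitals. It is the one with most such sequences among those that matched the transcripts considered for printing. Some transcripts were not considered. Among them was AC140207.2, which gave 157 of the matching IAPLTR3 sequences and 853 of the IAPLTR3-int ones. The ends printed for IAPLTR3 and IAPLTR3-int are therefore not given as the fullest of all their matches. The strand given is that of the small RNA. Sequences of up to 30 nt are printed, and ties between 5' ends were settled in alphabetical order. The 8 matching IAPLTR1a_Mm sequences each had a 5' end of their own, and the one taken was longer than 30 nt, so none is printed.
IAPLTR1_Mm, Noct at chr3:51245286-51245315 (+): AacgcgtctAataacactactgtccgtatt
IAPLTR2_Mm, Gm49794 at chr17:27354833-27354862 (+): TagttatcgTcccttttaaggagaattatc
IAPLTR2a, Clec2g at chr6:128971226-128971252 (+): TgaagatgtAaggaatcttttgccaca
IAPLTR2b, D10Wsu102e at chr10:83472843-83472871 (+): TccttcgccTaggtcgtatcactccctga
IAPLTR3, Gm48544 at chr13:13038035-13038064 (+): CcgttgctcAtagtaaaatgtgtgcaagcg
IAPLTR4, Gm47415 at chr12:98094221-98094249 (-): TgctggcgaGactataatacgggacaccc
IAPEY_LTR, Gm6641 at chr5:13080938-13080966 (+): TaatctctgAggagatccgtgtgtgccgc
IAPEY2_LTR, Kdm5d at chrY:953280-953305 (+): TactagctcCgacaagaagtggcgct
IAPEY3_LTR, 1700029E06Rik at chr5:58454915-58454944 (+): ActgcttatAtaagccttagtgtggcgtgt
IAPLTR3-int, Gm48544 at chr13:13037292-13037319 (+): TaagatcaaTtaacctgtcaaaggcttt
IAPLTR4_I, Ccr9 at chr9:123783482-123783509 (+): TaagagtgaAgtgaacagctaatcaaga
The IAPLTR2_Mm 5' end was shared by 10 such sequences that differed in their 3' end, those of Clec2g and D10Wsu102e by 4 each, and the rest by 1 to 3. The Clec2g sequence starts with TGAAGATGTA, the word seen at the IAPLTR1_Mm and IAPLTR1a_Mm pair sites.

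The LTR names differed in number and in how repetitive their sequences were. IAPLTR2_Mm was the largest of the 10 LTR names with 7526 sequences, ahead of IAPLTR2b with 4148, IAPLTR2a with 3808, IAPLTR1a_Mm with 2627 and IAPLTR1_Mm with 2435. The 3 IAPEY names had 1616 (IAPEY2_LTR), 1543 (IAPEY_LTR) and 1451 (IAPEY3_LTR), IAPLTR3 had 1538 and IAPLTR4 had 749. Sequences mapping to 1 position were rarest in IAPLTR1_Mm at 6.90% (95% interval 5.92 to 7.98%) and IAPLTR1a_Mm at 8.64% (7.59 to 9.78%). They made up 24.3% to 34.6% in the other names except IAPLTR3, where they were 47.6% (45.1 to 50.1%). The median number of positions was 266 in IAPLTR1a_Mm and 192 in IAPLTR1_Mm, against 11 in IAPLTR2_Mm and 2 in IAPLTR3. By this measure the IAPLTR1 names were the most repetitive of the 10.

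Length varied little. In the 10 LTR names 40.2% of sequences were 25 to 27 nt long, the range that MILI favours, and 34.7% (34.1 to 35.2%) were 29 to 31 nt long, the range that MIWI favours. The most frequent length was 27 nt in 8 of the 10, 28 nt in IAPEY3_LTR and 29 nt in IAPLTR1a_Mm. The share of 29 to 31 nt was 38.6% (36.7 to 40.5%) in IAPLTR1a_Mm and 29.7% (27.4 to 32.03%) in IAPEY_LTR, the highest and lowest of the 10.

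T, the mark of primary piRNAs, was the first base of most sequences in every name, and was lowest in the most repetitive ones. It was 51.5% (49.6 to 53.4%) in IAPLTR1a_Mm, 54.4% (52.4 to 56.4%) in IAPLTR1_Mm, 55.9% (54.3 to 57.5%) in IAPLTR2a and 58.8% (57.7 to 59.9%) in IAPLTR2_Mm. In the IAPEY names it ran from 62.4% (59.96 to 64.7%) in IAPEY2_LTR to 67.7% (65.2 to 70.1%) in IAPEY3_LTR. IAPLTR4 had 72.4% (69.0 to 75.5%), a value like the 72.1% (71.4 to 72.9%) of IAPLTR3-int. Across the 10 LTR names T first also went with the map number: 66.4% (65.3 to 67.5%) of sequences with 1 position began with T, 59.7% (58.5 to 61.0%) of those with 11 to 100, and 46.2% (44.1 to 48.3%) of those with more than 1000.

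A at position 10 was more even, from 36.1% (33.7 to 38.6%) in IAPEY_LTR to 43.8% (40.2 to 47.4%) in IAPLTR4, and 40.3% over the 10 LTR names, where A made up 24.1% at position 9 and 27.1% at position 11. It was more frequent where the first base was not T: 50.01% (49.1 to 50.9%) of such sequences had A at position 10, and 33.7% (33.0 to 34.4%) of those that began with T. IAPLTR4_I showed the widest gap of this kind, with 62.3% (55.9 to 68.4%) and 34.7% (30.7 to 38.9%).

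**Figure D2:**
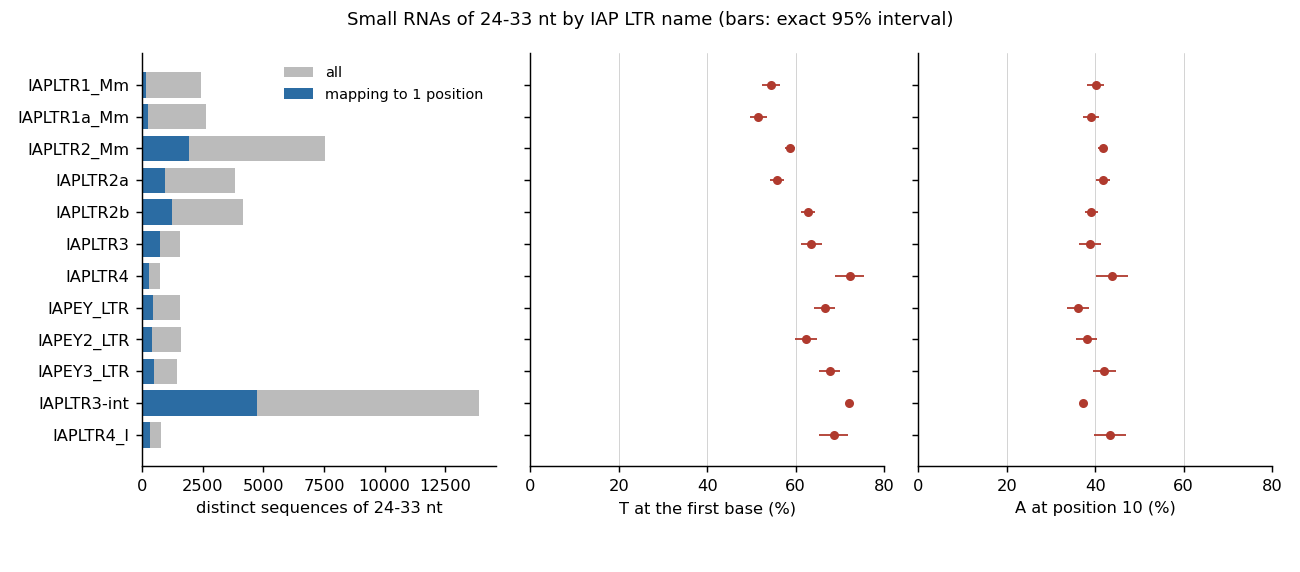
Number of distinct sequences of 24 to 33 nt under each of the 12 names (left; blue, those mapping to 1 position), their share with T first (middle) and with A at position 10 (right), with exact 95% intervals. T first spans 51.5% in IAPLTR1a_Mm to 72.4% in IAPLTR4, while A at position 10 stays between 36.1% and 43.8%.

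The strand of each small RNA relative to the LTR was read from the words of 13 bases it shares with LTR stretches in transcripts. Of the 27441 sequences under the 10 LTR names, 87.7% could be placed, and 57.0% of those (56.4 to 57.6%) were antisense. Antisense was in the majority in 7 of the 10 LTR names, from 56.3% (53.4 to 59.2%) in IAPEY_LTR to 65.7% (64.2 to 67.3%) in IAPLTR2b. It was in the minority in IAPLTR1_Mm at 44.3% (42.2 to 46.3%), IAPLTR1a_Mm at 43.3% (41.4 to 45.3%) and IAPLTR4 at 41.4% (37.2 to 45.7%). The internal region IAPLTR3-int stood apart with 81.3% antisense (80.5 to 82.0%), although 4 transcripts supplied all the internal stretches used to orient it. IAPLTR4_I had 1 sequence placed and is given no strand.

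The antisense share over the 10 LTR names together was higher in sequences from fewer positions. It was 64.9% (63.5 to 66.3%) at 1 position, 60.2% (58.9 to 61.5%) at 2 to 10, 54.5% (53.2 to 55.8%) at 11 to 100, 52.0% (50.8 to 53.3%) above that up to 1000 and 53.1% (50.9 to 55.2%) above 1000. Of the 10 names, 5 did not share this. IAPLTR1_Mm had 23.4% (15.9 to 32.4%) antisense among its 111 placed sequences of 1 position. IAPLTR1a_Mm had 33.3% (26.4 to 40.9%) among its 174. IAPEY3_LTR had 51.9% (45.7 to 58.1%) at 1 position and 59.1% (55.5 to 62.8%) at more, IAPEY2_LTR had 59.2% and 59.9%, and IAPLTR4 had 41.0% and 41.6%. The shift was widest in IAPLTR3, with 74.3% (70.2 to 78.1%) at 1 position and 51.6% (48.0 to 55.2%) at more. Single loci weighed on these shares. IAPLTR3 had 370 antisense and 128 sense placed sequences of 1 position, and AC140207.2 on chromosome 18 alone matched 155 antisense and 2 sense ones. IAPLTR2_Mm had 991 and 451, and Gm49794 on chromosome 17 matched 229 and 7. Shares without these loci were not computed. Placement itself went with the map number, at 67.8% of sequences with 1 position and 94.4% of the rest.

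The base preferences split the names into groups. In the 3 IAPEY names together, antisense sequences began with T more often, at 69.7% (67.7 to 71.7%), than sense sequences, at 58.4% (55.8 to 60.9%). Position 10 was the reverse: A was there in 32.2% (30.1 to 34.2%) of antisense and 49.9% (47.3 to 52.4%) of sense sequences, while A at all other positions was about equal, at 23.9% in antisense and 25.2% in sense sequences. Each of the 3 names showed this, with A at position 10 in 31.1% of antisense and 55.1% of sense sequences in IAPEY3_LTR, 32.2% and 46.2% in IAPEY_LTR, and 32.8% and 49.3% in IAPEY2_LTR. IAPLTR3-int had the same pattern, with A at position 10 in 33.8% (32.8 to 34.8%) of antisense and 50.7% (48.5 to 52.9%) of sense sequences. In the classical ping-pong cycle, known from Drosophila, piRNAs with T first are antisense to the transposon and those with A at position 10 are sense.

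The 5 IAPLTR1 and IAPLTR2 names together did not share it. Antisense sequences began with T in 53.1% (52.2 to 54.1%) and had A at position 10 in 43.4% (42.5 to 44.4%), and sense sequences in 60.7% (59.7 to 61.8%) and 38.2% (37.2 to 39.3%). The base composition of these LTRs runs the same way: T made up 19.8% of the other positions in antisense and 27.03% in sense sequences, and A made up 28.8% and 23.7%. Over those levels, A at position 10 of the 5 names together was higher by 14.6 percentage points in antisense and 14.5 in sense sequences. The names under this mean differed: the excess was 17.3 points in antisense and 11.8 in sense sequences of IAPLTR1_Mm, 19.1 and 11.8 in IAPLTR1a_Mm, and 15.5 and 13.4 in IAPLTR2_Mm, but 12.2 and 17.9 in IAPLTR2b, and 11.9 and 19.5 in IAPLTR2a. By this measure IAPLTR2a and IAPLTR2b lay on the side of the IAPEY names, where the excess of A was 8.21 points in antisense and 24.6 in sense sequences. With sequences of 1 position alone, the excess of the 5 names together was 10.5 points in antisense and 14.2 in sense sequences. In IAPLTR2_Mm it was then 10.8 and 13.4 points, the other way round from all its sequences. IAPLTR1_Mm (19.4 and 2.67 points) and IAPLTR1a_Mm (29.5 and 8.50 points) kept the higher excess in antisense sequences. IAPLTR3 had A at position 10 in 41.3% (37.7 to 44.8%) of antisense and 36.7% (32.4 to 41.1%) of sense sequences, with intervals that overlapped. IAPLTR4 had it in 45.5% (38.9 to 52.3%) of antisense and 46.1% (40.5 to 51.7%) of sense sequences, whose intervals also overlapped.

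**Figure D3:**
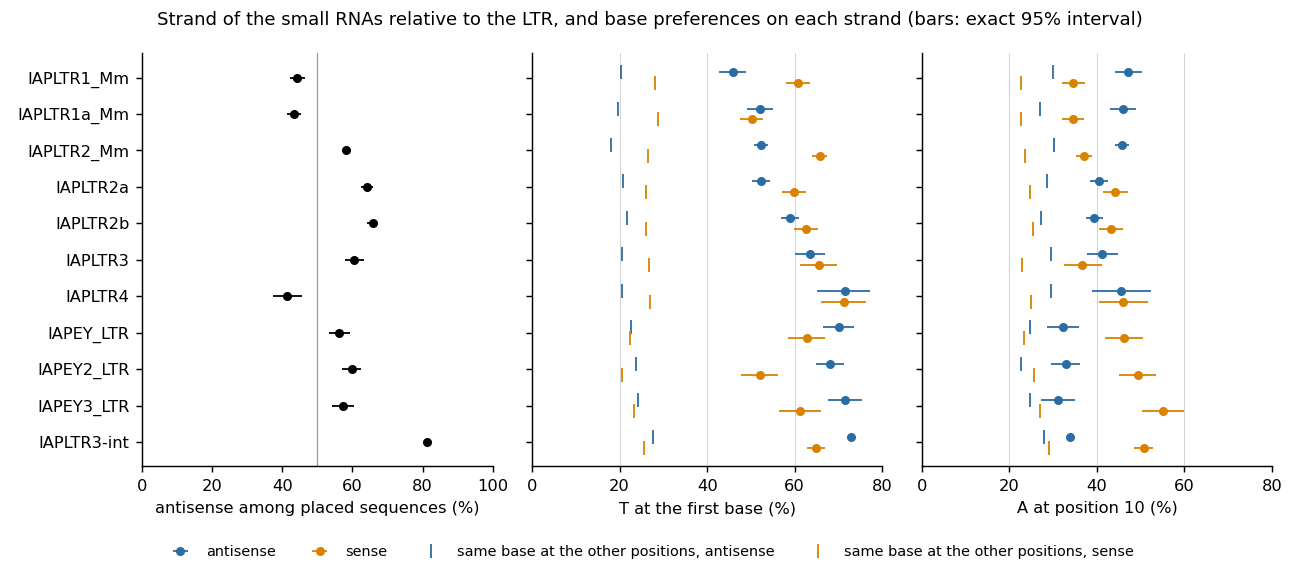
Antisense share of placed sequences (left), T first (middle) and A at position 10 (right) for 11 names, with antisense sequences in blue above sense sequences in orange, exact 95% intervals, and ticks for the same base at the other positions. In the IAPEY names and IAPLTR3-int the orange points for A at position 10 lie between 46.2% and 55.1% and the blue ones between 31.1% and 33.8%. In IAPLTR1_Mm, IAPLTR1a_Mm, IAPLTR2_Mm and IAPLTR3 the blue points are the higher, with overlapping intervals in IAPLTR3. Over the ticks, the excess in IAPLTR3 is 11.7 points in antisense and 13.7 in sense sequences.

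Partners on the opposite strand were then sought among the sequences themselves, with no copy or strand assigned. A 5' end was the first 20 nt of a sequence, and its 10 bases that would lie within a given overlap were compared with the starts of the other 5' ends in the list, for overlaps of 10 to 20 nt. Of the 13086 distinct 5' ends of the 10 LTR names, 55.4% (54.6 to 56.3%) had a partner at 10 nt, against a mean of 42.4% for overlaps of 11 to 20 nt. That background moved with the map number. With only sequences of 1 position, 28.3% (27.1 to 29.6%) of 4922 5' ends had a partner at 10 nt, against 15.3% at 11 to 20 nt. In all 12 names the share was highest at 10 nt, with all sequences and also with those of 1 position alone.

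With all sequences, the IAPEY names and IAPLTR4 rose most above their background. At 10 nt and over 11 to 20 nt, the share was 40.5% (37.6 to 43.5%) and 20.8% in IAPEY2_LTR, 38.6% (35.5 to 41.8%) and 19.99% in IAPEY_LTR, 32.1% (29.2 to 35.1%) and 15.4% in IAPEY3_LTR, and 30.8% (27.2 to 34.7%) and 12.6% in IAPLTR4. The IAPLTR1 and IAPLTR2 names had higher shares over a higher background, such as 52.2% (49.3 to 55.1%) and 41.6% in IAPLTR1_Mm and 50.7% (48.5 to 53.0%) and 36.5% in IAPLTR2a. The ratio of the share at 10 nt to the background was 1.24 to 1.39 in these 5 names 1.93 to 2.45 in IAPLTR4 and the IAPEY names, and 2.81 in IAPLTR4_I. With sequences of 1 position alone this order did not hold. The share at 10 nt was then 23.4% (20.3 to 26.8%), against 11.6%, in IAPLTR2a, and 10.2% (5.70 to 16.6%), against 1.46%, in IAPLTR1_Mm, which had the highest ratio, 7.0, from 137 5' ends. It was 8.83% (6.08 to 12.3%), against 4.42%, in IAPEY_LTR, and 17.5% (13.8 to 21.8%), against 3.92%, in IAPEY2_LTR. Over all sequences IAPLTR3-int had 24.1% (23.2 to 25.1%) and 13.5%, and IAPLTR4_I had 19.0% (16.1 to 22.2%) and 6.77%.

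**Figure D4:**
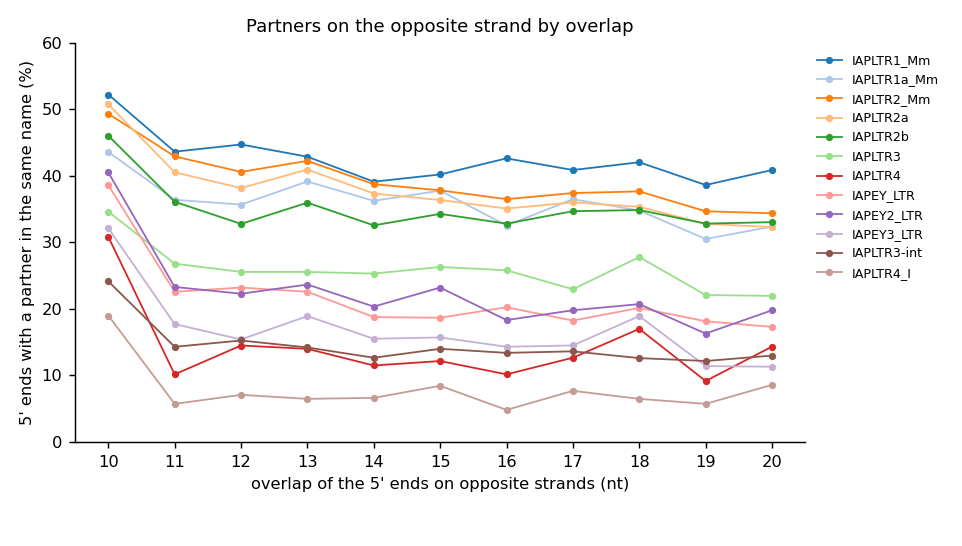
Share of the distinct 5' ends of each name with a partner on the opposite strand under the same name, by the overlap of the 5' ends from 10 to 20 nt. Every line is highest at 10 nt, from 19.0% in IAPLTR4_I to 52.2% in IAPLTR1_Mm, and the lines differ in the level they keep at 11 to 20 nt.

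Among 5' ends placed on a strand, the partner's first base was counted as well. In a 10-nt pair it lies opposite position 10 of the 5' end, so a T there is that end's own A. These values therefore restate A at position 10 for paired 5' ends and are not separate support for the groups. In the IAPEY names, sense 5' ends had an antisense partner that began with T in 60.1% (55.7 to 64.4%) of 10-nt pairs, against 42.9% at overlaps of 11 to 20 nt. The sense partners of antisense 5' ends began with T in 43.1% (38.5 to 47.8%), against 41.3%. In the IAPLTR1 and IAPLTR2 names both kinds of partner had more T at 10 nt: sense partners of antisense 5' ends began with T in 52.3% (50.3 to 54.3%), against 39.6%, and antisense partners of sense 5' ends in 35.3% (33.3 to 37.3%), against 27.8%. In IAPLTR3-int antisense partners began with T in 68.7% (64.9 to 72.4%) of 10-nt pairs, against 54.1%, and sense partners in 54.3% (50.3 to 58.3%), against 52.9%.

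Partners were also found across names, mostly among names that share sequence. The 5' ends of IAPLTR2a had a partner under IAPLTR2_Mm at 10 nt in 53.9%, against 41.2% at 11 to 20 nt, and under IAPLTR2a itself in 50.7%, against 36.5%. IAPLTR1a_Mm had partners under IAPLTR2_Mm in 44.4%, against 35.2%. Among the IAPEY names, IAPEY2_LTR had partners under IAPEY_LTR in 24.9%, against 12.8%, and under IAPEY3_LTR in 21.5%, against 11.2%. IAPLTR4 had partners under IAPEY3_LTR in 13%, against 5.22%, and under IAPLTR2b in 9.83%, against 4.15%. IAPEY3_LTR had partners under IAPLTR2b in 8.01%, against 3.48%, a rise of 4.52 percentage points that was close to its rise of 4.85 with IAPEY_LTR. IAPLTR3 rose by 9.60 percentage points with itself and by at most 2.82 with any other name. In shared sequence, 32.6% of the 15-base words of IAPLTR1a_Mm and 33.8% of those of IAPLTR2a were also in IAPLTR2_Mm, 19.1% of those of IAPEY_LTR were in IAPEY2_LTR, and 4.79% of those of IAPLTR3 were in IAPLTR4.

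The internal names had partners in the IAP internal region and few in the LTRs. IAPLTR4_I had partners under IAPEz-int, the commonest IAP internal name with 55866 sequences, in 17.8% at 10 nt, against 8.96% at 11 to 20 nt. With the 10 LTR names its share at 10 nt was at most 1.21% and the rise at most 0.98 points. As a ratio to the low background the rise was larger there. It reached 5.33 with IAPEY_LTR (1.21%, against 0.226%) and was 1.99 with IAPEz-int. IAPEz-int itself had T first in 61.2% (60.8 to 61.7%), A at position 10 in 45.7% (45.2 to 46.1%) and a partner at 10 nt in 61.7%, against 48.4%; its A at position 10 was above the interval of the 10 LTR names (39.7 to 40.9%).

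**Figure D5:**
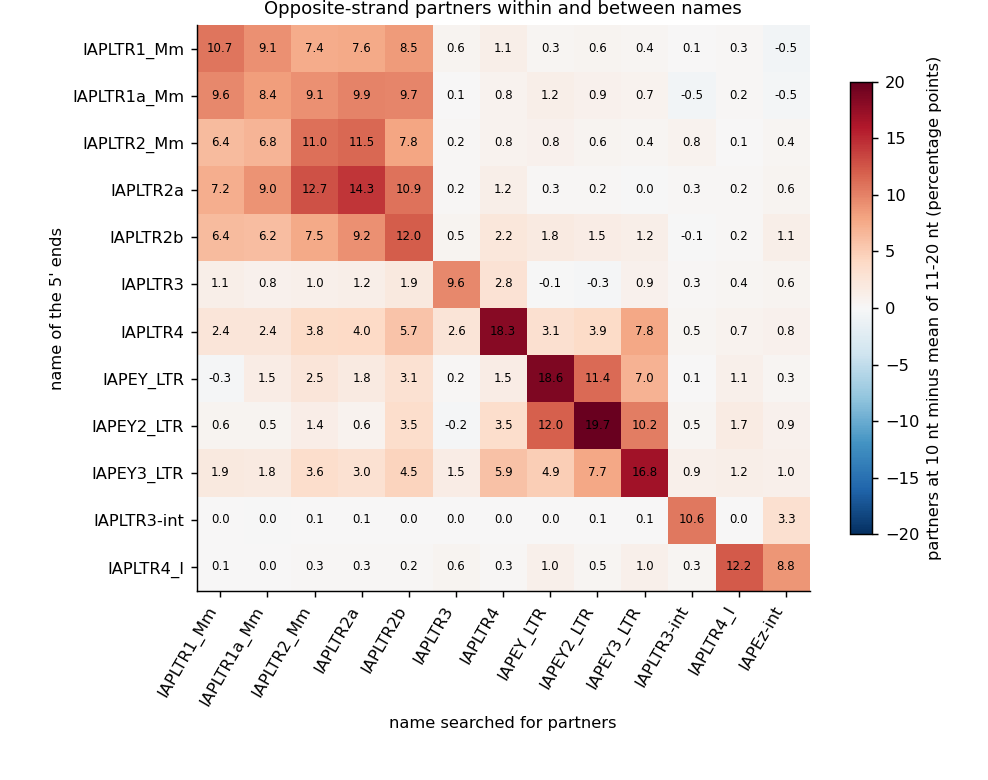
Share of 5' ends of the row's name with a partner under the column's name at 10 nt, minus the mean over 11 to 20 nt, in percentage points. The 5 IAPLTR1 and IAPLTR2 names form a block of 6.16 to 14.3 points and the 3 IAPEY names a block of 4.85 to 19.7 points. Outside the blocks, IAPLTR4 rises by 7.78 points with IAPEY3_LTR and 5.68 with IAPLTR2b, and IAPEY3_LTR by 5.87 with IAPLTR4. With IAPLTR2b, IAPEY3_LTR rises by 4.52 points, IAPEY2_LTR by 3.48 and IAPEY_LTR by 3.07. The rows of the internal names are at most 0.98 with any LTR name. Their columns reach 1.69, for IAPEY2_LTR with IAPLTR4_I.

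Genes carry these LTRs in their transcripts. Of the sequences under the 10 LTR names, 12123 (44.2%) matched a GENCODE transcript exactly, and the matches outlined 148 LTR loci, 78 with the LTR along the transcript and 70 against it. Of 52 loci at the 3' end of a transcript, 44 lay along it and 8 against it. The polyadenylation signal AATAAA was in the last 40 nt of the transcript in 32 of the 44 and in 0 of the 8, and in 25.8% of all transcripts. Of 85 loci inside a transcript 29 lay along it and 56 against it, and of 13 at the 5' end 7 lay along and 6 against. Introns were not searched.

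LTRs also overlapped gene starts. In the RefSeq promoter windows, 37 genes had at least 150 nt of LTR matches that included the gene start, with the LTR along the gene in 23 and against it in 14. The promoter of Gm14149 ranked first by number of matches, closely followed by that of Gm29709 with 1000. Gm14149 is a gene model whose start lies in an IAPLTR1 LTR. Its promoter was matched by 1003 small RNAs, 499 along the gene and 504 against it. It is printed whole, 5′ to 3′ along the gene, because LTR matches cover 270 of its bases and the gene start. The capitals, bases 79 to 88, mark the 10-nt overlap with the largest product of sequence numbers on both strands. There 10 sequences started along the gene and 9 against it. The gene starts at base 251. The capitals spell the word of the IAPLTR2a pair site.
Gm14149, GRCm38.p6 chr2:151204945-151205244 (+): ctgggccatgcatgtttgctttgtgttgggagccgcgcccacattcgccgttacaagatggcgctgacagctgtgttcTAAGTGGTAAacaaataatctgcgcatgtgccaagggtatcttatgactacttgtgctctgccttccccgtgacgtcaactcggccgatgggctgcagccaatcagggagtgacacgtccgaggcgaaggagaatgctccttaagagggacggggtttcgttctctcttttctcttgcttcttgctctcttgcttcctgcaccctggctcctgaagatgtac

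Few of the LTR sequences with 1 position matched a transcript, and most of those that did came from 3 genes. Of 6833 sequences of the 10 LTR names with 1 position, 645 (9.44%) matched transcripts of 68 genes, and 458 of the 645 came from the 3. Gm49794 on chromosome 17 gave 236, of which 229 ran along the transcript, all from IAPLTR2_Mm at chr17:27354562-27355076. AC140207.2 on chromosome 18 gave 157, of which 155 ran along it, from IAPLTR3. D10Wsu102e on chromosome 10 gave 65, of which 64 ran along it, from 5 LTR stretches in its annotated 3' UTR. In all 3 the LTR lay against the transcript, so small RNAs running along the transcript were antisense to the LTR. Outside the LTRs, Gm49794, AC140207.2 and D10Wsu102e gave 21381, 7735 and 9065 further sequences of 1 position, 98.8%, 93.4% and 99.7% of them along the transcript.

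The LTR stretches resembled the rest of their transcript in some respects. T first was 52.8% (46.2 to 59.4%) in the Gm49794 LTR and 55.2% (54.5 to 55.9%) in the rest, and 65.8% (57.8 to 73.2%) and 67.9% (66.9 to 69.0%) in AC140207.2. In D10Wsu102e it was 48.4% (35.8 to 61.3%) in the LTRs, below the 77.0% (76.1 to 77.8%) of the rest. Partners under the 10 LTR names at 10 nt were found for 23 of the 40 LTR 5' ends of D10Wsu102e (57.5%, 40.9 to 73.0%), against 24.8% at 11 to 20 nt, and for 25 of the 74 of AC140207.2 (33.8%, 23.2 to 45.7%), against 26.2%. In Gm49794 they were found for 9 of 52 (17.3%, 8.23 to 30.3%), against 16.3%. The highest share at any of the overlaps from 11 to 20 nt was 47.5% in D10Wsu102e, below its share at 10 nt. It was 33.8% in AC140207.2, equal to the share at 10 nt, and 19.2% in Gm49794, above the share at 10 nt. Each of the 3 lay within the interval at 10 nt. That interval does not measure the difference between overlaps of the same 5' ends, so whether 10 nt stood apart was not tested. AC140207.2 also gave 853 of the 911 sequences of the internal names with 1 position that matched a transcript, 843 of them along it.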

How the data were processed

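The authors deposited 1 list for the series with a distinct sequence, a map number and an annotation per line; the map number, which counts genome positions, is neither a read count nor a score, per the file headers. Aligner, genome build and repeat annotation are not named in the sources used here. With the libraries pooled, the planned comparison of homozygous with heterozygous testes could not be made. The members and lists were chosen with earlier results of these data known. Names with at least 500 sequences of 24 to 33 nt were described singly.

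Sequences were matched exactly to both strands of 141770 GENCODE M21 transcripts (GRCm38). Matches less than 30 nt apart were joined, and stretches of at least 150 nt were kept. Stretches were oriented by blastn 2.17.0 (0 conflicts in 20988 pairs) and by the longest reading frame of the adjoining internal region, which fitted in 12 of 12 cases. A sequence was called sense or antisense when at least 3 of its 13-base words, and 3 times as many as on the other strand, were in oriented stretches. Intervals came from scipy 1.17.1. Each name's copy was the stretch inside a transcript with most matches, fewer than 20 of them of 1 position; placement on it allowed 2 differences. Functions were tested on simulated data.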

Additional observations from a re-analysis of the deposited data

Results flagged for a closer look

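Sequences under the 12 names outside 24 to 33 nt were not part of the values above. There were 2135 of 15 to 18 nt, 7321 of 19 to 23 nt and 133 of 34 to 36 nt, with no control library to set beside them. Of those of 19 to 23 nt, 57.0% were the start of a member of 24 to 33 nt and 47.0% (45.9 to 48.2%) began with T. Those that were such a start began with T in 58.4%, and the rest in 31.97%. Of those of 15 to 18 nt, 46.8% were such a start and 29.7% (27.8 to 31.7%) began with T. Of those of 34 to 36 nt, 60.2% (51.3 to 68.5%) began with T. The libraries were selected for 19 to 33 nt per the labels.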

How the results depend on the processing

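No paired analysis was possible because the list holds no column per library. With all 12 names, 42130 sequences had T first in 63.9% and A at position 10 in 39.4%, and 44.2% of 5' ends had a partner at 10 nt, against 31.9% at 11 to 20 nt. With 25 to 32 nt, A at position 10 was 39.8%; T first and partners stayed within the intervals. With map number 1, the number was 11869, T first 69.6%, A at position 10 36.8% and partners 21.1%, against 11.3% at 11 to 20 nt. Without the 2 internal names the number was 27441, A at position 10 40.3%, partners 55.4% and T first 59.7%, the last an alternative chosen after seeing the data. With each 5' end counted once, T first was 58.2% and A at position 10 was 37.1%. With 8 bases compared, partners were 59.1%, against 47.7%. The cause of these shifts was not tested. Comparing 12 bases was not run, since an overlap of 10 nt has only 10. Words of 11 and 15 bases, also chosen after seeing the data, gave 56.8% and 57.2% antisense in the 10 LTR names, with 7 of 10 names over 50% under each, and A at position 10 higher in sense sequences in all 3 IAPEY names. The unknown depth and pooled libraries limit every value to presence in the list.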
